A study of Mus musculus with 4 samples.

Results

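Type I interferon-stimulated genes (ISGs) were followed through the myeloid, lymphoid and stromal cells of MC38 tumors, as a list of 35 genes named for their known induction by interferon. The list was chosen with earlier results of these data known. The count tables held 33 of the 35 among 19059 genes, and Mx1 and Mx2 were not analysed here. MC38 is a mouse colon adenocarcinoma line, here grown under the skin of B-hCTLA-4 mice, a C57BL/6 strain that carries the human form of the checkpoint receptor CTLA-4. All mice carried that humanized receptor, controls included, and treatment began at a tumor size of about 100 mm3. Groups received, 3 times, ipilimumab (a human IgG1 against CTLA-4, 10 mg/kg), the antibody AT130-2 mIgG1-N297A against mouse FcgRII (20 mg/kg), both, or isotype control human IgG1 (10 mg/kg). FcgRII is the inhibitory Fc receptor of mouse myeloid and B cells, and the N297A change in the constant domain is one that strongly weakens binding to Fc receptors. On day 8 the tumors of 11 mice per group were pooled into 1 sample, viable CD45+ cells were sorted and fixed, and 4 single-cell libraries were made with gene-specific probes, 1 per group and all in batch 1. The sources used here do not tie an age to this strain, and the study's own methods give another number of tumors, day, dose and starting size than these labels do.

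The labels disagree about both single-antibody groups, since the title of each names one antibody and its treatment field names the other. These libraries are therefore called the CTLA-4-titled and the FcgRII-titled library, and which of them came from mice given ipilimumab was not settled. With 1 library per group no difference between groups could be tested against the spread between tumors. No p-value is given, the intervals are 95% exact intervals that cover counting error only, and every ratio to the isotype control shares that 1 control library. "Higher" and "lower" describe these libraries and not the treatments.

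Type I interferons are a family of secreted antiviral cytokines that almost every cell can sense through the receptor IFNAR1/IFNAR2. Signalling from the receptor assembles the complex ISGF3, which contains STAT2 and IRF9 and binds a DNA element called the interferon-stimulated response element (ISRE) beside a large set of genes. Their products block viral RNA, sense nucleic acids, or feed back on the pathway, and in tumors the program has been studied for its part in antigen presentation and in the recruitment of T cells. IFN-γ acts through a separate receptor and on another element, called GAS, so that part of the list responds to both cytokines.

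The DNA in front of the genes was searched for the ISRE and GAS elements. RefSeq promoters (GRCm38.p6, from 250 bases before to 50 bases after the start) were found for 26 members. The ISRE core, spelled GAAANNGAAA and searched on both strands, was in 16 of these 26 (61.5%), against 1079 of 27025 genes (3.99%). The GAS letters, TTCNNNGAA, were in 3 of 26 (11.5%), against 2582 of 27025 genes (9.55%), and in Bst2 the match, which begins at -136, overlaps the ISRE core that begins at -130. Windows of 160 bases that end at the start site are printed for 5 members of 4 families whose levels are followed below, 5′ to 3′ on the gene's own strand, with the letters of the ISRE core in capitals. They are Ifit1 (chr19:34640729-34640888, plus strand), Ifit3 (chr19:34583369-34583528, plus strand), Isg15 (chr4:156200819-156200978, minus strand), Oas1a (chr5:120907526-120907685, minus strand) and Rsad2 (chr12:26456453-26456612, minus strand).
Ifit1: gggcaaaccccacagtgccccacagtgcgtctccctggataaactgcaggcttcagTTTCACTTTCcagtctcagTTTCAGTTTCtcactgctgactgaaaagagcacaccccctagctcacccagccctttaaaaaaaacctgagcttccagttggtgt
Ifit3: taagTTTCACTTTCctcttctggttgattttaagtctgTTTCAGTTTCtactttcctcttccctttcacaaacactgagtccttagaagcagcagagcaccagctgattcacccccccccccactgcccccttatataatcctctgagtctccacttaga
Isg15: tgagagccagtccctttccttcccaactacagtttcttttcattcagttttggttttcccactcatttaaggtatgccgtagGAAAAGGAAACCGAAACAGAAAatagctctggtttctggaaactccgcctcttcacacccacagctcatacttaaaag
Oas1a: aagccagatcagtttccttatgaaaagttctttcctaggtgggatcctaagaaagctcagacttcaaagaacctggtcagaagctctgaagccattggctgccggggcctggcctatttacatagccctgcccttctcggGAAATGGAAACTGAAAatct
Rsad2: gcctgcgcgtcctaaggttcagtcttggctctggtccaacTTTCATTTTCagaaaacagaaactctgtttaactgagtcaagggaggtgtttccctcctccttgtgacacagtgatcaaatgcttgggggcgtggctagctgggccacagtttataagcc
Ifit1 and Ifit3 each hold 2 separate cores, Isg15 holds 3 that overlap, Oas1a holds 2 that overlap, and Rsad2 holds 1. Counted from the start site, the first core of Ifit1 begins at -104 and the second at -85, whereas the cores of Ifit3 begin at -156 and -122. Ifit2, a neighbour of both in the IFIT cluster on chromosome 19, has no ISRE core letters in its window and a GAS match at -241. These matches are descriptions of letters in a window and not measured binding sites. The members in the tables lie on 14 chromosomes, with 5 each on chromosomes 5, 11 and 19.

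The 4 libraries held 6097 to 8173 cells and 129151823 to 196362818 UMIs (unique molecular identifiers, 1 per captured probe molecule), with a median of 14836 to 19115 UMIs per cell. After filters, 26785 cells remained, and 27 clusters were made without any list member among the 3000 clustering genes. Pairs of libraries shared 709 to 1139 droplet barcodes, as libraries loaded together do, and 0 full barcodes, because each library has its own probe barcode. Macrophages (12480 cells, C1qa at 6528 to 7588 counts per 1000000 UMIs, CPM) were the largest class, followed by monocytes (4717), NK cells and ILC1 (1446), T cells (1294), neutrophils (714), dendritic cells (605) and stromal or tumor cells (344). The last class had little Ptprc, the gene for CD45 (11.8 to 25.8 CPM), although CD45 was the sort marker, and had the collagen gene Col3a1 at 3874 to 6120 CPM. Clusters 3, 14 and 20 carried lymphocyte and macrophage markers together and cluster 5 was left unnamed by the naming rule, so they were kept out of the classes. Cluster 5 (1897 cells) was led by Ccl17, Slc4a11, Ifitm1, Htr7 and Mgl2. Of these, Ccl17, Htr7 and Mgl2 are on the dendritic marker list, so the dendritic class may be incomplete. B cells and plasma cells (52 cells) and the clusters of mast cells and basophils (93 and 58 cells) were few, and comparisons between classes leave them out. In the isotype, CTLA-4-titled, FcgRII-titled and combination libraries they were 13.8, 8.98, 8.58 and 13.6% of cells for the mixed clusters, and 7.96, 6.04, 8.31 and 6.04% for cluster 5. In all that follows, 4 values in a row stand for the isotype, CTLA-4-titled, FcgRII-titled and combination libraries in that order.

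The list differed more between cell classes than between libraries. Summed over the 33 members, neutrophils carried 15364, 23055, 11133 and 21590 CPM. Monocytes followed at 8885, 11149, 9582 and 10641 CPM, and dendritic cells at 5622, 6837, 5876 and 7074 CPM. T cells held 5252, 6117, 4242 and 4994 CPM and macrophages 3903, 4830, 3223 and 4885 CPM, with T cells higher in each library. NK cells and ILC1, at 2607, 2074, 2515 and 2256 CPM, and stromal or tumor cells, at 2680, 2558, 2003 and 4137 CPM, were lowest. Neutrophils therefore gave 1.11 to 2.31% of all their UMIs to these genes, and macrophages 0.322 to 0.488%. Different genes made up the sum in each class. Slfn4, Isg15 and Rsad2 held 39.0 to 46.2% of it in neutrophils, and Bst2, Irf7 and Zbp1 held 33.9 to 39.2% in macrophages. Since RNA was counted with probes, levels of different genes were not compared with each other.

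**Figure D1:**
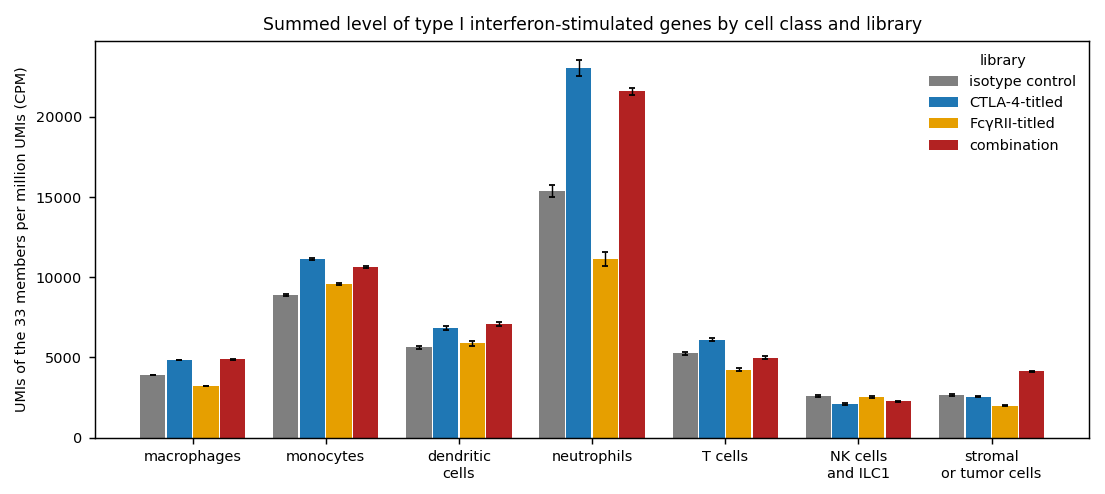
Summed level of the 33 ISGs (vertical axis, CPM) in 7 cell classes (horizontal axis), 1 bar per library, with 95% counting intervals as error bars. Neutrophils stand highest, with 23055 CPM in the CTLA-4-titled and 11133 CPM in the FcgRII-titled library, and the combination bar is above the isotype bar in macrophages, monocytes, dendritic cells, neutrophils and stromal or tumor cells and below it in T cells and NK cells and ILC1.

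In the combination library the sum was higher than in the isotype control in every myeloid class and lower in T cells and in NK cells and ILC1. The ratio was 1.25 (1.25 to 1.26) in macrophages, 1.20 (1.19 to 1.21) in monocytes, 1.26 (1.23 to 1.29) in dendritic cells and 1.41 (1.37 to 1.44) in neutrophils. It was 0.951 (0.926 to 0.976) in T cells and 0.865 (0.838 to 0.893) in NK cells and ILC1, which became 1.09 with no doublets left out. In stromal or tumor cells it was 1.54 (1.51 to 1.58). The CTLA-4-titled library resembled the combination in the myeloid classes, with ratios of 1.24 in macrophages, 1.25 in monocytes, 1.22 in dendritic cells and 1.5 in neutrophils, and differed from it in T cells, at 1.16 (1.14 to 1.19), a ratio that became 0.915 when cells were clustered without integration. The FcgRII-titled library was lower than the control in macrophages (0.826), neutrophils (0.725), T cells (0.808) and stromal or tumor cells (0.747), but not in monocytes (1.08) or dendritic cells (1.05). In NK cells and ILC1 all 3 antibody libraries were below the control, with ratios of 0.795 and 0.964 in the CTLA-4-titled and FcgRII-titled libraries. These ratios are on CPM, and scaling by the median of ratios over all genes moved the middle gene by -0.11 (log2) in macrophages and -0.11 in dendritic cells of the combination and by -0.21 in neutrophils of the CTLA-4-titled library, so relative to the middle gene the ISGs stood higher there. From such sums alone, fewer cells with ISG RNA and less of it per cell cannot be told apart.

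Macrophages gave the most precise values, from 251757 to 450186 member UMIs per library. Of the 33 members, 31 passed the filter of a mean of 10 CPM and 100 UMIs in the class, and Ifit3b and Ifit1bl1, at 3.69 to 12.7 CPM, did not. In the combination 28 of the 31 were above the isotype control, where 28.5% of genes were. The median ratio was 1.21, against 0.929 over the 8586 genes that passed. At a ratio of 1.5 or more stood 7 of the 31, where 3.45% of all genes did. In the CTLA-4-titled library 30 of 31 were above the control, where 28.5% of genes were (median 1.21 against 0.961). There 1 of 31 reached 1.5, where 0.652% of genes did. In the FcgRII-titled library 30 of 31 were below the control, while 40.7% of all genes were above it (median 0.763 against 0.984). At least 1.5-fold lower were 3 of 31, where 1.43% of genes were. The FcgRII-titled library was the lowest of the 4 for 30 of the 31 members, and the highest was the combination for 16 and the CTLA-4-titled library for 14. Between these last 2 the sums differed by a ratio of 1.01, with 16 of 31 members higher in the combination, so the macrophage list as a whole separated them little. For counts of members highest or lowest in a library, in every class, the share of all genes was not computed.

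The ISG15 system was the family with the largest ratio in macrophages. Its genes encode a ubiquitin-like protein that is attached to other proteins (Isg15), the ligase that attaches it (Herc6) and the protease that removes it and also damps IFNAR signalling (Usp18). Isg15 stood at 181, 269, 130 and 313 CPM, 1.73 (1.70 to 1.77) in the combination relative to the control. Herc6 stood at 64.4, 75.7, 48.4 and 90.9 CPM (1.41). Usp18 stood at 58.0, 69.4, 41.2 and 63.6 CPM (1.10), with its highest value in the CTLA-4-titled library. The 3 genes together gave 303, 414, 220 and 468 CPM, 1.54-fold in the combination, with most of the difference from Isg15.

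The IFIT family, whose proteins bind foreign RNA and block its translation, behaved differently from Isg15. Ifit1 stood at 42.5, 56.3, 32.1 and 48.8 CPM, Ifit2 at 69.7, 99.9, 45.2 and 82.3 CPM, and Ifit3 at 86.9, 115, 58.9 and 79.4 CPM. For all 3 the CTLA-4-titled library was highest and the FcgRII-titled library lowest. Ifit3 in the combination was below the isotype control (ratio 0.914, 0.884 to 0.946), near the median of 0.929 over all genes that passed. The family sum was 216, 291, 147 and 224 CPM, a ratio of 1.04 (1.02 to 1.06) in the combination and 1.35 (1.32 to 1.38) in the CTLA-4-titled library. Rsad2, which encodes viperin, an enzyme that makes a chain-terminating nucleotide, followed the order of Ifit1 and Ifit2 at 124, 184, 90.6 and 159 CPM. Its neighbour Cmpk2, a mitochondrial nucleotide kinase that feeds viperin's substrate, was instead highest in the combination (33.4, 34.1, 26.4 and 41.9 CPM).

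The oligoadenylate synthetase family, named for enzymes that make the messenger that switches on RNase L, was split in the same way. Oasl1 stood at 51.9, 66.3, 39.9 and 84.7 CPM (1.63 in the combination), Oas3 at 58.0, 77.6, 38.7 and 87.7 CPM (1.51) and Oasl2 at 122, 156, 86.9 and 167 CPM (1.37). Oas1a (119, 139, 104 and 129 CPM) and Oas2 (70.7, 81.7, 51.4 and 68.9 CPM) were highest in the CTLA-4-titled library, and the combination ratio of Oas2 was 0.975 (0.940 to 1.01). Nucleic acid sensors ranged from 1.10 for Ddx58 (RIG-I) and 1.19 for Ifih1 (MDA5) to 1.34 for Dhx58 (LGP2) and 1.56 for Zbp1, the sensor of Z-form nucleic acids, at 210, 270, 141 and 327 CPM. Of the transcription factors, Irf7, which drives later IFN-α genes, stood at 214, 309, 181 and 325 CPM (1.52), whereas Irf9, the DNA-binding part of ISGF3, stood at 87.1, 86.2, 75.9 and 80.8 CPM (0.928) and was the 1 member highest in the control. Stat2 lay between them, at 76.5, 92.6, 59.1 and 96.2 CPM (1.26), and the Irf9 ratio was near the median of 0.929 over all genes that passed.

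Ifi205, a DNA-binding HIN-200 protein, had the largest combination ratio in macrophages, at 70.0, 86.9, 45.5 and 138 CPM (1.97, 1.91 to 2.04), and its relative Ifi204 stood at 155, 183, 131 and 183 CPM (1.18). The Schlafens, which include inhibitors of translation and growth, moved little by comparison, with Slfn4, Slfn5 and Slfn8 at ratios of 1.21, 1.13 and 1.12. Ifi44 was low throughout, at 14.8, 27.4, 11.6 and 22.3 CPM, and was the member that reached 1.5-fold in the CTLA-4-titled library (1.85, 1.72 to 2.00). Bst2, which encodes the virus-tethering protein tetherin, varied little, at 919, 1097, 942 and 1003 CPM, and was the 1 member that was not lowest in the FcgRII-titled library. Parp14, an ADP-ribosyltransferase, stood at 203, 235, 168 and 258 CPM. Rtp4, Trim30a and Xaf1 had combination ratios of 1.21, 1.17 and 1.26.

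**Figure D2:**
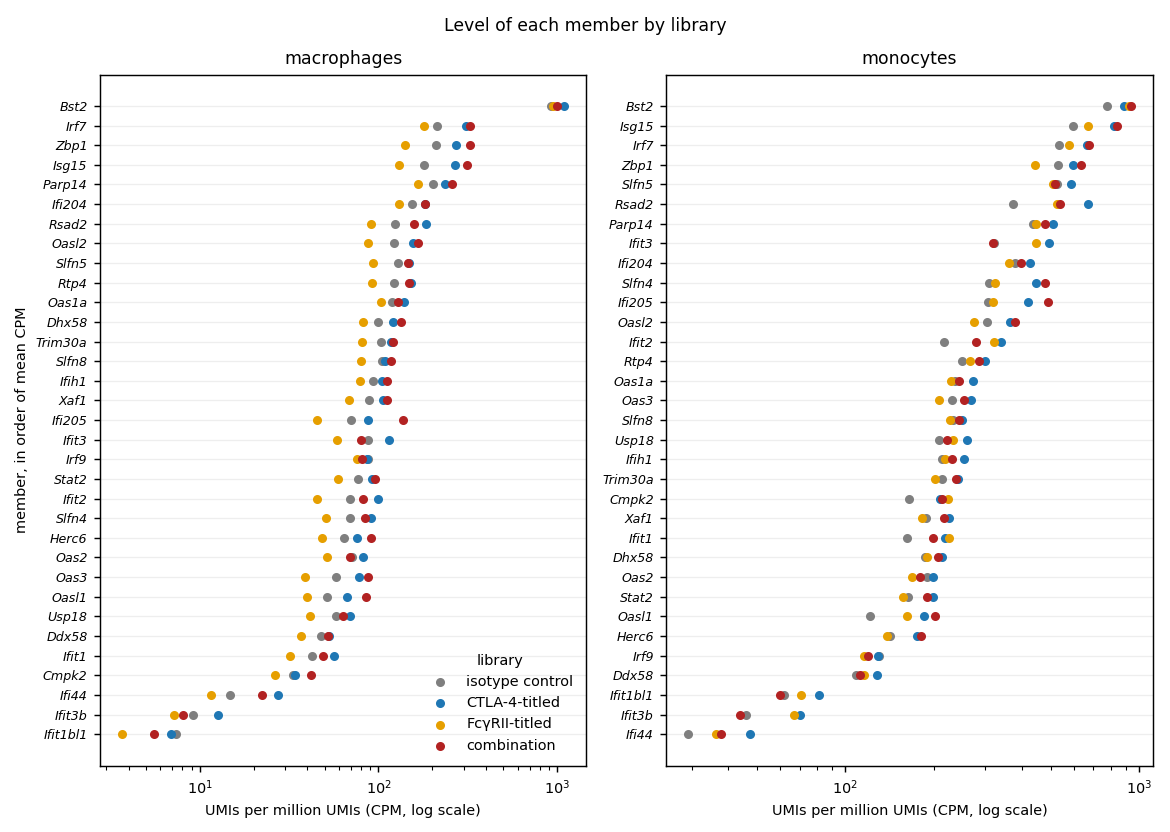
Level of each ISG (CPM, log axis) in macrophages and in monocytes, with 1 point per library and the members in order of their mean CPM in that class along the other axis. In macrophages the FcgRII-titled point is the lowest for 30 of the 31 members that passed the filter, while in monocytes the isotype point is the lowest for 17 of 33.

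Monocytes carried more of every family than macrophages and ordered the libraries differently. All 33 members passed the filter. In the combination 27 of 33 were above the control, where 33.3% of genes were (median 1.14 against 0.938 over 8168 genes). At least 1.5-fold higher were 3 of 33, where 3.77% of genes were. In the CTLA-4-titled library 32 of 33 were above the control, where 37.7% of genes were. There 6 of 33 reached 1.5, where 0.943% of genes did. The CTLA-4-titled library was highest for 21 members and the combination for 9, and the isotype control was the lowest for 17 and the FcgRII-titled library for 13. Rsad2 stood at 374, 672, 524 and 536 CPM, 1.80 (1.74 to 1.86) in the CTLA-4-titled library. Ifit3 stood at 322, 492, 445 and 318 CPM, so that its 2 single-antibody libraries were above both others. The IFIT family together gave 809, 1202, 1130 and 900 CPM, and in this class the FcgRII-titled library stood at 1.40 times the control, while in macrophages it stood at 0.682. Cluster 4, the monocyte cluster rich in ISGs that is described below, held 568 of 1548 control and 360 of 854 FcgRII-titled monocytes. The part of this mix of clusters in the monocyte ratio was not tested. The monocyte cluster led by Thbs1, Spp1 and Fn1 had its lowest sum in the FcgRII-titled library, as the macrophages did. It held 422, 306, 322 and 481 of the monocytes, and Arg1 was also among its leading genes. Spp1 and Arg1 are on the macrophage marker list and Thbs1 and Fn1 on the monocyte list, so its name is uncertain. In the monocyte class the macrophage marker list summed to 19781, 21080, 27512 and 22208 CPM. The monocyte marker list summed to 17558, 15582, 15959 and 13770 CPM. The part of macrophage RNA in the monocyte values was not tested.

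The genes that led the monocyte combination ratios were Oasl1 (121, 186, 163 and 202 CPM, 1.67), Ifi205 (305, 417, 319 and 491 CPM, 1.61) and Slfn4 (309, 445, 324 and 479 CPM, 1.55). Isg15 stood at 598, 821, 671 and 844 CPM (1.41). At the other end stood Irf9 (130, 129, 116 and 119 CPM, 0.916) and Oas2 (189, 199, 169 and 180 CPM, 0.948). Ifi205, Oasl1 and Isg15 had higher ratios than Irf9 and Oas2 in macrophages too, but Slfn4 stood at 1.21 there, and both classes come from the same libraries.

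A single monocyte cluster stood far above the others. Cluster 4 (1930 cells, led by Plac8, Cmpk2, Ifit3, Chil3 and Rsad2, although no member took part in the clustering) had a member sum of 15464, 17907, 16814 and 16214 CPM, a ratio of 1.05 in the combination. It held 568, 470, 360 and 532 cells. The cluster led by Ace and Adgre4, genes of patrolling monocytes, stood at 5596, 5902, 5619 and 7336 CPM, and that led by Thbs1, Spp1 and Fn1 at 4294, 4702, 2943 and 5565 CPM. Their combination ratios, 1.31 and 1.30, were larger than that of cluster 4. Monocytes rich in ISG RNA were therefore present in the control library at nearly the level of the combination, and the combination stood further above the control in the clusters with less.

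**Figure D3:**
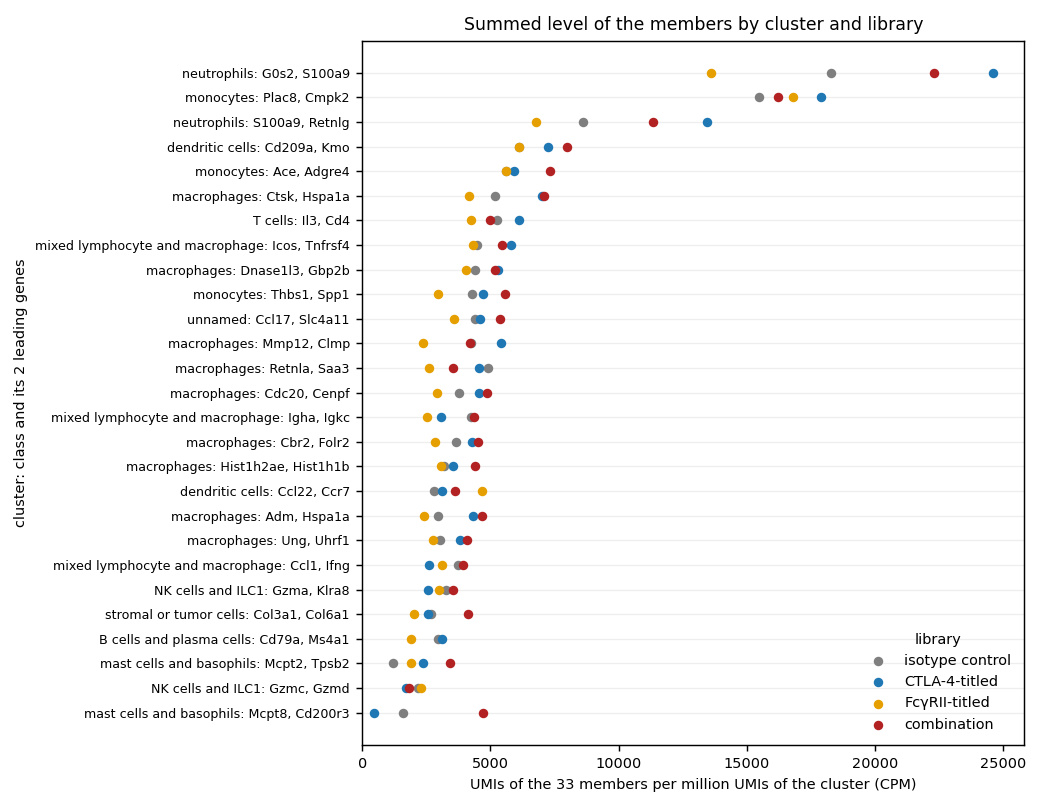
Summed level of the 33 ISGs (horizontal axis, CPM) in each cluster, with the clusters in order of their level over all libraries. Each library has 1 point per cluster, except where it had very few cells. Neutrophil cluster 15 (13625 to 24635 CPM) and monocyte cluster 4 (15464 to 17907 CPM) stand apart from all macrophage clusters (2383 to 7091 CPM).

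Macrophage clusters were more alike, from 2383 to 7091 CPM over clusters and libraries. The cluster led by Ctsk and the heat-shock genes Hspa1a and Hspb1 was the highest of the large ones, at 5189, 7028, 4178 and 7091 CPM (1.37 in the combination). The resident-like cluster led by Cbr2, Folr2 and Gas6 stood at 3666, 4273, 2828 and 4497 CPM (1.23), and the cluster led by Dnase1l3, Gbp2b and Cxcl9 at 4389, 5294, 4031 and 5166 CPM (1.18). The 3 clusters led by histone and cell-cycle genes had ratios of 1.37, 1.34 and 1.29. A small cluster led by Adm, Hspa1a and the mitotic gene Spdl1, with 71, 62, 53 and 23 cells, had the largest, at 2937, 4310, 2412 and 4650 CPM (1.58). In 2 clusters the combination was not above the control. The cluster led by Mmp12 and Nos2, with 116, 153, 107 and 344 cells, stood at 4240, 5416, 2383 and 4201 CPM (0.991), and the small cluster led by Retnla, Saa3 and Lyve1, with 36, 58, 24 and 28 cells, at 4903, 4571, 2616 and 3519 CPM (0.718). In every macrophage cluster the FcgRII-titled library had the lowest sum.

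Per cell, the macrophage difference ran through the whole range of cells. Each cell was thinned to 9212 UMIs, and 449, 300, 267 and 232 shallower cells were left out. The median cell then held 25, 32, 21 and 34 member UMIs, with counting ranges of 24 to 26, 31 to 33, 20 to 21 and 33 to 35. The cell at the 10th percentile held 11, 14, 9 and 15, and the cell at the 90th percentile 71, 87, 55 and 84. Without thinning the medians were 27.3, 34.7, 22.2 and 37.5 per 10000 UMIs. The 10% of cells with most member UMIs carried 34.0, 34.1, 33.9 and 30.5% of them, so the signal was not concentrated in fewer cells in the combination. In monocytes, at 5254 UMIs, the medians were 28, 32, 24 and 37, and the FcgRII-titled median was the lowest although its sum was not.

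**Figure D4:**
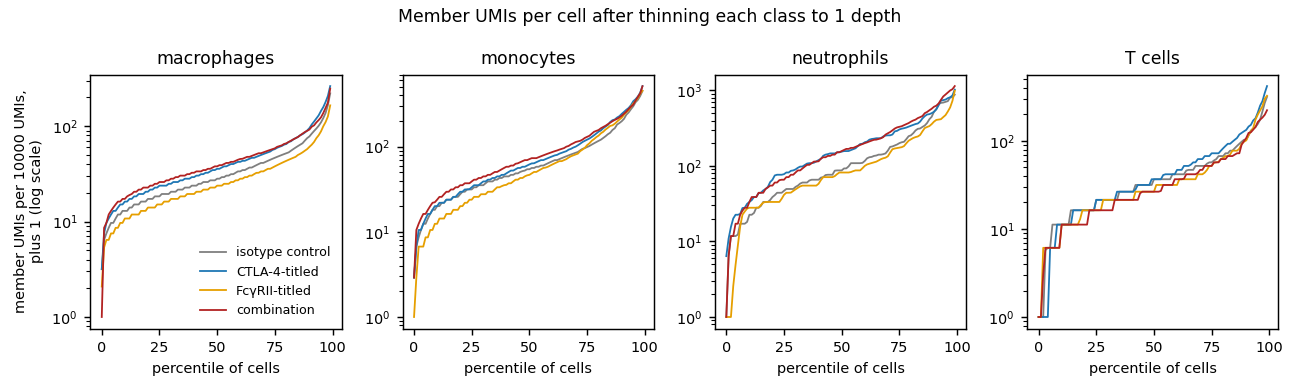
Member UMIs per 10000 UMIs plus 1 (vertical axis, log scale) against the percentile of cells (horizontal axis) after thinning to 1 depth per class, with 1 line per library, for macrophages, monocytes, neutrophils and T cells. In macrophages the lines keep their order over most percentiles, with medians of 34 UMIs per thinned cell in the combination and 21 in the FcgRII-titled library.

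Neutrophils were few (112, 91, 49 and 462 cells) but had the highest levels. Of the 33 members 32 passed the filter, Ifi44 being below it. Cluster 15, with the higher member sum, held 79, 75, 33 and 431 of these cells and cluster 23 held 33, 16, 16 and 31, so the combination had a larger part of its neutrophils in the cluster rich in ISGs. Within the clusters the combination ratios of the sum were 1.22 and 1.31, and with clusters weighted as in the isotype control the class gave 1.24 in place of 1.41. In the combination 30 of 32 were above the control, where 46.3% of genes were (median 1.49 against 0.970 over 4535 genes). At least 1.5-fold higher were 16 of 32, where 11.8% of genes were. In the CTLA-4-titled library 16 of 32 were as well (median 1.47), where 9.02% of genes were. In the FcgRII-titled library 9 of 32 were at least 1.5-fold lower (median 0.831), where 13.6% of genes were, and 26 of 32 had their lowest value there. Isg15 stood at 1562, 3402, 851 and 2958 CPM, 1.89 (1.75 to 2.05) in the combination and 0.545 (0.464 to 0.637) in the FcgRII-titled library. Rsad2 stood at 1943, 2739, 751 and 2804 CPM. For both genes the CTLA-4-titled and combination values were above those of the isotype and FcgRII-titled libraries.

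In some other neutrophil members the CTLA-4-titled and combination values were also above the others. The share of all genes with this order was not computed. Herc6 stood at 206, 445, 174 and 445 CPM (2.16 in the combination), Parp14 at 392, 726, 399 and 785 CPM (2.00) and Zbp1 at 328, 468, 299 and 681 CPM (2.07). Slfn4, a Schlafen of myeloid cells and here the gene with most UMIs of the list, stood at 3566, 4508, 2736 and 3520 CPM, a ratio of 0.987 (0.935 to 1.04) in the combination. Oas2 did not separate the libraries either, at 300, 353, 303 and 285 CPM. Ifit1bl1 was at 17.5, 17.2, 0 and 47.1 CPM, and the 0 of the FcgRII-titled library, from 49 cells, allows up to 12.5 CPM. The macrophage marker list of 26 genes, 23 of them over 10 CPM in this class, summed to 14413, 10661, 26376 and 10815 CPM in neutrophils, highest in the library where the ISGs were lowest, and its part in these values was not tested. Without cells that had 1% or more of their UMIs on those markers, which left 77, 75, 37 and 391 cells, the combination ratio of the sum was 1.52. The median neutrophil, at 1852 UMIs, held 16, 28.5, 15 and 29 member UMIs.

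Dendritic cells (235, 147, 99 and 124 cells) had member ratios from 0.514 to 3.08 in the combination. All 33 passed the filter, and 29 were above the control, where 37.9% of genes were (median 1.29 against 0.928 over 8086 genes). At least 1.5-fold higher were 12 of 33, where 5.75% of genes were. Slfn4 stood at 43.3, 24.8, 19.6 and 133 CPM (3.08, 2.44 to 3.91), and the single-antibody libraries were below the control. Ifit1 stood at 48.1, 71.5, 50.2 and 96.6 CPM (2.01, 1.58 to 2.56) and Isg15 at 312, 415, 359 and 590 CPM (1.89, 1.72 to 2.08). Ifi44 (50.2, 54.2, 47.1 and 25.8 CPM, 0.514) and Bst2 (1069, 1041, 1055 and 737 CPM, 0.690) had the opposite order, with 3 libraries close together and the combination below them. Bst2 is a surface marker of plasmacytoid dendritic cells as well as an ISG. The neutrophil marker list summed to 160, 92.3, 101 and 251 CPM and the macrophage list to 6111, 4968, 8992 and 7980 CPM in this class, both higher in the combination than in the control, and their part was not tested. The median cell, at 5485 UMIs, held 23, 28, 26 and 25.5 member UMIs with counting ranges that overlapped, so the higher sum was not seen as a higher median cell. The cluster led by Cd209a and Kmo held 198, 131, 85 and 91 cells, with a combination ratio of 1.30. That led by Ccl22 and Ccr7, with lower sums, held 37, 16, 14 and 33 cells, with a ratio of 1.28. The combination thus had a larger part of its dendritic cells in the second cluster than the control. The part of this mix in the median was not tested.

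**Figure D5:**
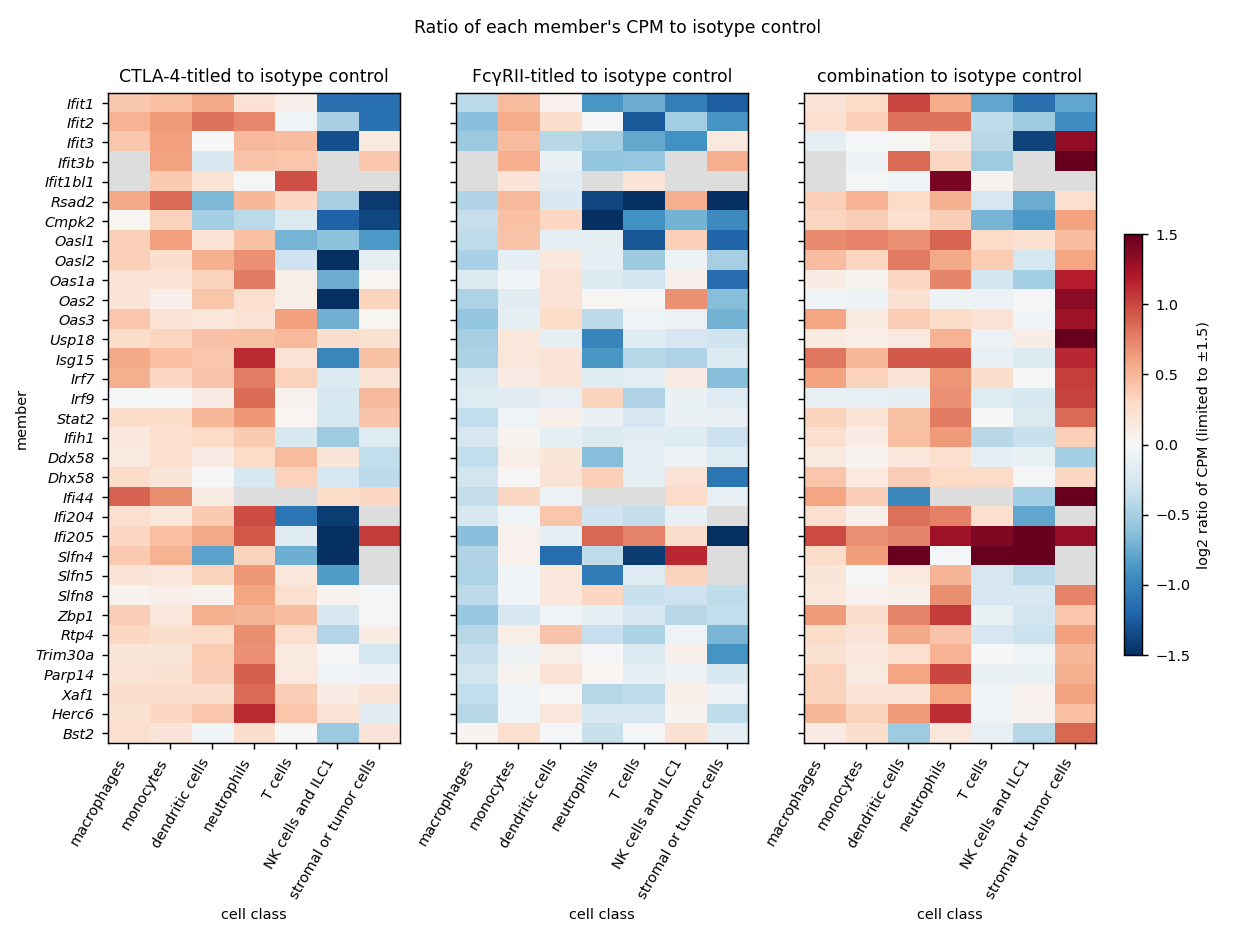
Ratio to the isotype control (colour, log2, limited to 1.5 either way) of each of the 33 ISGs (rows) in 7 cell classes (columns), with 1 panel each for the CTLA-4-titled, FcgRII-titled and combination libraries and grey where a member did not pass the filter. The FcgRII-titled panel is below the control for 30 of 31 members in macrophages, where 40.7% of all genes were above it. The combination panel is above the control for 28 of 31 in macrophages, where 28.5% of genes were. In NK cells and ILC1 it is above for 7 of 31, where 47.6% of genes were.

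In T cells most members were not above the control in the combination, and the sum was higher in the CTLA-4-titled than in the FcgRII-titled library. Without integration these 2 ratios to the control were 0.915 and 0.885 in place of 1.16 and 0.808, so that the CTLA-4-titled library was no longer above the control. They form a single cluster led by Il3, Cd4, Penk, Cd5 and Foxp3 (362, 437, 183 and 312 cells), while cluster 14, led by Ccl1, Ifng, Rgs16 and Cd8a, was among the mixed clusters. Of the 32 members that passed, 9 were above the control in the combination, where 44.1% of genes were (median 0.927 against 0.975 over 8639 genes). At least 1.5-fold higher were 2 of 32, where 4.65% of genes were. The CTLA-4-titled library was highest for 24 of 32, although 2 of 32 reached 1.5-fold, where 4.27% of genes did. The FcgRII-titled library was lowest for 22 of 32, and 7 of 32 were at least 1.5-fold lower, where 3.69% of genes were. Ifit3 stood at 205, 282, 120 and 153 CPM, Ifit1 at 148, 156, 89.3 and 85.9 CPM and Rsad2 at 165, 205, 49.4 and 139 CPM. For these 3 the FcgRII-titled and combination libraries were both below the other two.

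Isg15 in T cells, at 347, 403, 257 and 320 CPM, had a combination ratio of 0.922 (0.830 to 1.02), whereas Irf7, at 226, 287, 207 and 272 CPM, had 1.20 (1.07 to 1.36). Ifit1bl1, a less studied relative of Ifit1, had its highest level of the 27 clusters in the T cell cluster and stood at 108, 211, 123 and 112 CPM. The 2 members above 1.5 in the combination were Slfn4 (49.8, 29.9, 18.4 and 145 CPM) and Ifi205 (24.6, 21.6, 41.3 and 64.9 CPM). Both also had higher CPM in monocytes than in T cells in every library. The macrophage marker list, with 23 of 26 genes over 10 CPM in T cells, summed to 9297, 2795, 14676 and 10075 CPM. Without cells with 1% or more macrophage UMIs, which left 320, 425, 158 and 270 T cells, the FcgRII-titled ratio of the sum was 0.996 in place of 0.808 and the combination ratio was 0.916. The lower T cell sum of the FcgRII-titled library thus ended when these cells were left out of each library. At 1958 UMIs the median T cell held 7, 7, 5 and 5 member UMIs.

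Of the 6 CD45+ classes described, NK cells and ILC1 had the lowest member levels and the lowest combination ratio. Of 31 members that passed, 7 were above the control in the combination, where 47.6% of genes were (median 0.854 against 0.990 over 8994 genes). At least 1.5-fold higher were 2 of 31, where 3.71% of genes were. At least 1.5-fold lower were 5 of 31, where 7.06% of genes were. In the CTLA-4-titled library 13 of 31 were at least 1.5-fold lower, where 9.2% of genes were, and 18 of 31 had their lowest value. Ifit3 stood at 50.5, 20.2, 27.0 and 19.3 CPM (0.381, 0.284 to 0.509 in the combination) and Ifit1 at 43.0, 19.8, 21.1 and 19.8 CPM. The isotype library alone was high for both. Sensors and effectors such as Ddx58 (101, 114, 94.8 and 94.0 CPM), Xaf1 (89.0, 95.9, 95.7 and 93.0 CPM) and Herc6 (79.3, 91.5, 81.3 and 82.3 CPM) had nearly equal values in all 4.

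As in T cells, the 2 NK members over 1.5 were Slfn4 (13.8, 2.43, 30.3 and 50.7 CPM) and Ifi205 (12.0, 3.24, 14.3 and 37.5 CPM), and both had their lowest value in the CTLA-4-titled library. The macrophage markers had that order too at its low end, at 8217, 2088, 11582 and 5026 CPM. Without cells with 1% or more macrophage UMIs, which left 304, 416, 200 and 405 cells, 0 members reached 1.5 in the combination and the ratio of the sum was 0.776. The 2 clusters of the class differed. The one led by Gzma and Klra8 stood at 3251, 2553, 3003 and 3547 CPM (1.09 in the combination) and the one led by Gzmc and Gzmd at 2161, 1690, 2276 and 1806 CPM (0.836). The second cluster held 109, 124, 101 and 199 cells, so the combination had a larger part of its NK cells and ILC1 in the cluster with lower ISGs. With clusters weighted as in the isotype control the combination ratio of the class was 0.966, and it was 1.09 when no doublets were left out. The median NK cell or ILC1, thinned to 2120 UMIs, held 3, 3, 3.5 and 3 member UMIs.

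Stromal or tumor cells (73, 95, 98 and 78 cells) had the highest combination ratio of the sum among the 7 classes described, in 1 cluster. Of 29 members that passed, 26 had their highest value in the combination (median ratio 1.53 against 0.991 over 9394 genes) and 18 of 29 were at least 1.5-fold higher, where 3.08% of genes were. In the FcgRII-titled library 13 of 29 were at least 1.5-fold lower, where 4.93% of genes were. Usp18 stood at 24.7, 28.9, 20.2 and 75.4 CPM (3.05, 2.45 to 3.83), Ifit3 at 52.7, 58.5, 58.2 and 132 CPM (2.51) and Isg15 at 182, 246, 157 and 398 CPM (2.19). In each of these the combination alone was high. Ifit1 (198, 90.9, 84.1 and 116 CPM) and Ifit2 (92.1, 42.5, 49.7 and 48.2 CPM), in contrast, were highest in the isotype control, so members of 1 family had opposite orders in the same cells. Bst2 stood at 712, 816, 647 and 1296 CPM. C1qa, a macrophage gene, was at 120, 131, 34.3 and 171 CPM in this class, highest and lowest in the same libraries as the ISG sum, and its part was not tested.

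The members kept step with each other across cell types to different degrees. Over the 27 clusters, the log2 level of each member was set against the mean log2 level of the others, as a description, since the clusters share libraries and depth. Ifih1 (r = 0.943), Irf7 (0.899) and Oas3 (0.871) followed the list most closely, and Bst2 (0.328), Ifi44 (0.458) and Ddx58 (0.477) least. For all members but Ifit1bl1 and Oas3 the highest cluster was neutrophil cluster 15 or monocyte cluster 4. Oas3 was highest in the other neutrophil cluster, at 505 CPM.

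The ligands of the pathway were close to undetectable. Of 14 type I interferon genes in the tables none passed the filter in macrophages. Ifnb1, the gene of IFN-β, had 201, 516, 95 and 151 UMIs in macrophages, from 35, 31, 13 and 20 cells, which are 1.06% (0.742 to 1.48), 1.10% (0.747 to 1.56), 0.401% (0.214 to 0.684) and 0.641% (0.392 to 0.988) of them. In the CTLA-4-titled library 1 cell alone held 181 of the 516. Ifnb1 in macrophages thus came from a few cells with many copies, and there the libraries ranked differently for it than for the ISGs. The combination was below the control in UMIs, but their intervals for the share of cells overlapped. The mixed clusters held 17, 0, 116 and 10 Ifnb1 UMIs. Over all kept cells the FcgRII-titled library was above the control in CPM (1.66 against 1.46), with 136 of its 212 UMIs in 5 cells. Its share of cells with a UMI was lower than that of the control, 0.363% (0.225 to 0.555) against 0.555% (0.402 to 0.748), and the intervals overlapped. No Ifnb1 UMI was found in NK cells and ILC1, where 3 counts set the limit at a share of 0.693 to 1.24% of cells with a UMI per library, in dendritic cells (limit 1.28 to 3.03%) or in neutrophils (limit 0.649 to 6.12%). The limits are not on cells that express the gene, since these classes were also shallower, with medians of 4290 to 5987.5, 8726 to 10391 and 2966 to 3479 UMIs per cell, where macrophages had 19044 to 25505. Both type III interferon genes had no UMI in macrophages.

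Receptor genes did not follow the ISGs. Ifnar1 stood at 314, 288, 300 and 269 CPM and Ifnar2 at 342, 336, 318 and 316 CPM in macrophages, and 0 of the 5 receptor genes that passed had a ratio of 1.5 in either direction. Of all genes in these macrophages, 3.45% were at least 1.5-fold higher in the combination and 2.83% at least 1.5-fold lower. These shares stand beside each count of the combination in this paragraph. Of 16 sensors and adaptors upstream of the ligands, 2 were at least 1.5-fold higher in the combination, Samhd1 (547, 688, 501 and 998 CPM) and Ikbke (71.8, 83.7, 80.0 and 118 CPM). Cgas, at 28.8 to 33.4 CPM, and Tmem173, the gene of STING, at 207, 216, 180 and 198 CPM, were not. Among the IRFs outside the list 1 of 5 was, Irf1 at 313, 401, 239 and 643 CPM (2.06). Of 6 brakes the 1 was Socs1, at 76.4, 110, 50.5 and 275 CPM (3.60, 3.50 to 3.70).

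Targets that lean towards IFN-γ were also described in the same macrophages, from a list of 20 genes. Of 18 such genes that passed, 12 were at least 1.5-fold higher in the combination, with a median of 1.85, where 3.45% of all genes were, beside 7 of 31 and 1.21 for the ISGs. In the CTLA-4-titled library 5 of 18 were (median 1.30), where 0.652% of genes were, and in the FcgRII-titled library 5 of 18 were at least 1.5-fold lower (median 0.741), where 1.43% of genes were. Cxcl9 stood at 832, 1529, 643 and 2005 CPM, Gbp2 at 514, 684, 382 and 1201 CPM and Nos2 at 109, 262, 75.6 and 908 CPM. For these 3 genes the combination was above the CTLA-4-titled library. The cluster led by Mmp12 and Nos2 held 116 of 3292 control and 344 of 3121 combination macrophages, and its part in the Nos2 values was not tested. The whole list of 20 genes summed to 20425, 26152, 11437 and 31350 CPM. That sum was also higher in the combination than in the CTLA-4-titled library, whereas the ISG sums of the 2 libraries differed by a ratio of 1.01. In monocytes 10 of 19 (median 1.62), in dendritic cells 12 of 19 (1.96), in neutrophils 18 of 19 (2.32) and in stromal or tumor cells 14 of 18 (1.82) reached 1.5 in the combination, where 3.77, 5.75, 11.8 and 3.08% of all genes in these classes did. In T cells 5 of 19 (1.02) did, where 4.65% of genes did. The chemokine Cxcl10, a target of both interferons, stood at 241, 375, 202 and 599 CPM in macrophages and at 206, 970, 697 and 1041 CPM in neutrophils. The other 3 chemokines of that list were at least 1.5-fold lower in the neutrophils of the combination, where 13.9% of genes were. Ccl2 stood at 107, 336, 87.2 and 55.9 CPM, Ccl7 at 151, 189, 120 and 23.3 CPM and Ccl12 at 241, 614, 66.4 and 32.1 CPM.

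Ifng itself, the gene of IFN-γ, was at 133, 320, 122 and 150 CPM in T cells and at 227, 266, 137 and 102 CPM in NK cells and ILC1. Neither of these classes had its highest level in the combination. Cluster 14, with Ifng among its leading genes, and cluster 3, led by T cell genes such as Icos and Cd3e, were mixed and are in neither class. Dendritic cells of the combination held 234 Ifng UMIs, where the other libraries held 6, 4 and 2, while the T cell marker list, 8 of its 21 genes over 10 CPM, summed to 145, 144, 231 and 345 CPM and Cd3e stood at 0.802, 0, 12.6 and 32.8 CPM in that class. The part of T cell RNA in the dendritic Ifng was not tested.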

How the data were processed

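Counts of UMIs per gene and cell were deposited by the authors as filtered matrices made with Cell Ranger (version 7.0.0 in the submitters' processing notes, 7.2.0 in the file headers) on mm10. The probe-based counts were used as deposited, with no recounting. Cells with at least 500 genes and at most 10% mitochondrial UMIs were kept. Doublet scores were computed with the Scrublet step of scanpy 1.11.5, whose automatic threshold marked 1 cell in all, so the highest 5% of scores per library were left out (304 to 407 cells). SCTransform normalization, anchor integration over 3000 genes, 30 principal components and clustering at resolution 0.8 were run in Seurat 5.3.0 with sctransform 0.4.2 (R 4.3.3), after the study's methods, with list members left out of the clustering genes. Clusters were named from marker lists. Raw counts were summed per class and library and scaled to 1000000 UMIs (CPM), in Python 3.11.15 with scipy 1.17.1. Genes with a mean of 10 CPM and 100 UMIs in a class passed the filter. Ratios carry exact conditional intervals, shares exact Clopper-Pearson intervals, and the limit for a count of 0 is 3 counts. On simulated counts for each of 6 CD45+ classes (4535 to 8994 genes, 200 changed 3-fold), the step that computes ratios recovered 100% of changed genes and put 0 to 5.24% of unchanged genes past the 1.5-fold line, most in neutrophils. For values per cell, each class was thinned to the 10th percentile of its UMIs.

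Genes named in each class were those at the ends of the combination ratios, those of highest level and the families of the list. The members, marker lists and pathway lists were chosen with earlier results of these data known. Results for 1 of the pathway lists are not reported here. In all, 13 alternative settings were run, and 1 was added after the data were seen (clusters weighted as in the isotype control).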

Additional observations from a re-analysis of the deposited data

Results flagged for a closer look

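The combination library stood on opposite sides of the isotype control in the myeloid classes and in the T cell and NK classes as named here. Relative to the control, the summed level of the 33 genes was 1.25 in macrophages, 1.20 in monocytes, 1.26 in dendritic cells and 1.41 in neutrophils, all above 1, and 0.951 in T cells and 0.865 in NK cells and ILC1, both below 1. With 1 library per group the difference between these classes was not tested. The lymphoid values also lie nearest to 1, and that of NK cells and ILC1 changed side when no doublets were left out. Mixed clusters 3, 14 and 20, which carried lymphocyte markers and were kept out of the classes, stood at 1.22, 1.05 and 1.03. Unnamed cluster 5, also kept out, stood at 1.23. Within NK cells and ILC1, the cluster led by Gzma stood at 1.09 and that led by Gzmc at 0.836.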

How the results depend on the processing

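Alternatives were run for the combination sum ratios of the 6 CD45+ classes and for the single-antibody ratios of macrophages and T cells, and each of these 10 kept its side of 1 except in 2 cases. The other ratios were not rerun. The combination ratio of NK cells and ILC1 became 1.09 with no doublets left out, and the CTLA-4-titled ratio of T cells became 0.915 without integration. The cause of neither was tested. In the sentences that follow, values are combination sum ratios unless another library or a count of members is named. With members kept among the clustering genes, they were 1.20 in macrophages, 1.25 in monocytes, 0.992 in T cells and 0.809 in NK cells and ILC1 (CTLA-4-titled 1.21 in macrophages and 1.20 in T cells, FcgRII-titled 0.853 and 0.974), and the counts at 1.5-fold were 3 in macrophages and 6 in monocytes. Without integration they were 1.23, 1.31, 0.812 and 0.783 (CTLA-4-titled macrophages 1.26, FcgRII-titled 0.887 and 0.885), with counts of 1 in T cells and 0 in NK cells and ILC1. With no doublets left out, monocytes gave 1.22, dendritic cells 1.22, CTLA-4-titled macrophages 1.22 and the macrophage count was 4. Stricter cell filters gave 1.65 in neutrophils. Without cells rich in macrophage RNA, neutrophils gave 1.52, T cells 0.916, NK cells and ILC1 0.776 with a count of 0, and FcgRII-titled T cells 0.996. Size factors by the median of ratios gave 1.35 in macrophages, 1.27 in monocytes, 1.36 in dendritic cells, 1.49 in neutrophils and 0.983 in T cells (macrophages 1.30 CTLA-4-titled and 0.851 FcgRII-titled). The mean over cells gave 0.901 in T cells and 0.933 in NK cells and ILC1, with 1.27 and 0.7997 in CTLA-4-titled and FcgRII-titled macrophages and 1.23 and 0.991 in their T cells. Without the 3 highest members the values were 1.26, 1.17, 1.32 and 1.48 in macrophages, monocytes, dendritic cells and neutrophils (FcgRII-titled 0.765 in macrophages and 0.764 in T cells), and as medians over members 1.21, 1.14, 1.29 and 1.49 (CTLA-4-titled 1.21 in macrophages and 1.11 in T cells, FcgRII-titled macrophages 0.763). At 2-fold the counts were 0, 0, 2 and 5 in these 4 classes, and at 50 CPM and 500 UMIs 1 in T cells and 0 in NK cells and ILC1. For counts of members under alternative settings, here and above, the share of all genes was not computed, so they are not read as results. With clusters weighted as in the isotype control, an alternative chosen after seeing the data, the values were 1.27, 1.14, 1.30 and 1.24, with 0.966 in NK cells and ILC1 and, in macrophages, 1.22 CTLA-4-titled and 0.832 FcgRII-titled. Ratios of per-cell medians moved by less than their counting error without thinning. No paired analysis was possible because each group is 1 library. Neutrophil and dendritic values rest on 49 to 462 and 99 to 235 cells per library, and levels near 10 CPM there are a few UMIs.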
